A study of Homo sapiens with 6 samples.

Results

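CCBE1 and 5 genes of the vascular endothelial growth factor (VEGF) axis, VEGFC, VEGFA, ADAMTS3, NRP1 and NRP2, were followed in MCF10A cells given siRNA against YAP and TAZ. The members are the 6 genes, of 23459 Entrez IDs in the count table, that carry these symbols. CCBE1 was chosen by its strong fall in this same comparison, so its change is given as a description without a test. It also stands on a list of YAP/TAZ target genes that the study used elsewhere, whose name refers to this siRNA and whose libraries are not described, so it is no independent evidence. The other 5 were added for what they are known to do.

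The libraries are 3′ mRNA-Seq of MCF10A, an untransformed human mammary epithelial line grown with EGF, insulin, hydrocortisone, cholera toxin and horse serum. Cells received 20 nM of a non-targeting siRNA (siCtrl, n = 3) or of siRNA against YAP and TAZ (siYAP/TAZ, n = 3), and TAZ is encoded by WWTR1. The descriptions mark all 6 libraries as WT, and the study's methods speak of biological replicates for its RNA sequencing in general. The time after transfection, and whether these 3 libraries per group came from separate transfections, are not stated in the sources used here, so the p-values measure the spread between these libraries. In 2 libraries, siCtrl replicate 2 and siYAP/TAZ replicate 2, the title and genotype entry name the opposite group, and the descriptions were followed here.

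CCBE1 is a secreted matrix protein with collagen-like and calcium-binding EGF-like domains. It brings the metalloprotease ADAMTS3 together with the precursor of VEGFC, and the cleavage that follows turns this precursor into an active ligand of the receptor VEGFR3 (FLT4) on lymphatic endothelium. VEGFA is the main ligand of VEGFR2 (KDR) in blood vessel growth. NRP1 and NRP2 are co-receptors of VEGF ligands and of class 3 semaphorins. Epithelial cells are known mainly as a source of such ligands, while the VEGF receptors are typical of endothelium. In bulk RNA, fewer cells that express a gene and less of its RNA per cell cannot be told apart.

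Library totals ranged from 3175149 to 4317286 counts. Levels are given as CPM, the usual unit of counts scaled to a common library size, here by TMM, and a count of 0 allows up to 3 counts, 0.680 to 0.992 CPM depending on the library, which covers counting error only. YAP1 had 189, 204 and 210 CPM in the controls against 116.5, 118 and 112 after depletion, and WWTR1 had 109, 109 and 102 against 70.5, 67.1 and 59.8, so both followed the descriptions and not the titles. The depletion was partial at the RNA level, with 57.5% of the control mean left for YAP1 and 61.8% for WWTR1. Protein levels for these libraries are not given in the sources used here. On the first principal component (47.9% of the variance) siCtrl replicate 2 stood at 7.42, apart from siCtrl replicates 1 and 3 at -45.0 and -37.1 and beside siYAP/TAZ replicate 1 at 10.8. On the second component (22.4%) siCtrl replicate 2 had the lowest value, at -40.6, and siYAP/TAZ replicate 1 the highest, at 24.2. Of 12510 genes tested, 245 (1.96%) were called by the quasi-likelihood test of edgeR at a Benjamini-Hochberg adjusted p under 0.05, the threshold used throughout. The groups did not overlap in the lower direction for 11.1% of the genes tested and in the higher direction for 11.0%.

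The labelled cell type was checked against markers. All 10 mammary epithelial markers were tested, among them KRT5, KRT17, CDH1 and TP63. Of 10 endothelial and lymphatic markers, 9 were too low to be tested, CLEC14A was at 0 in every library, and the summed counts of the list were 23 to 36 in siCtrl and 39 to 50 in siYAP/TAZ. PECAM1 alone was tested, with 6, 4 and 4 counts in the controls against 14, 29 and 18 after depletion (adjusted p of 0.0785 in edgeR). PECAM1 passed with the replicate number as a block (0.0245), with DESeq2 (0.0312) and without the low-count filter (0.0352). Of 9 fibroblast markers, COL1A2, COL3A1 and THY1 were at 0 in every library. PDGFRA, with 551 to 613 counts in siCtrl and 553 to 683 in siYAP/TAZ, and TWIST2, with 114 to 171 and 106 to 167, did not follow the groups. FAP, also on the fibroblast list, had 67, 60 and 222 counts in the controls against 24, 10 and 48 after depletion (log2 fold change of -2.09, with an adjusted p of 0.0875 in edgeR). FAP passed with the replicate block (0.000543), with DESeq2 (0.00157), without the low-count filter (0.0131), without siCtrl replicate 2 (0.0137) and without both libraries whose labels conflict (0.0288), and its value was -1.36 without siCtrl replicate 3. The part of these markers in the results below was not tested.

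CCBE1 (Entrez 147372; GRCh37 chromosome 18, 57098171 to 57364894, minus strand) fell to a small remainder of its control level. It had 57.7, 45.7 and 59.8 CPM in siCtrl replicates 1, 2 and 3 and 6.12, 3.97 and 6.53 CPM in siYAP/TAZ, which were 201, 148 and 238 counts against 27, 12 and 24. The highest siYAP/TAZ library lay far below the lowest siCtrl library, and siCtrl replicate 2 was the lowest of its group. The means were 54.4 ± 7.63 and 5.54 ± 1.38 CPM (SD, n = 3), which left 10.2% of the control mean. The fitted log2 fold change (log2FC) was -3.27 (SE 0.23), the second lowest value of the 12510 genes tested, between CCN2 at -3.35 (SE 0.57) and INHBA at -3.25 (SE 0.28). Taken library by library within the replicate numbers, the log2 ratios were -3.21, -3.47 and -3.17. With any 1 library left out the log2FC stayed between -3.39 and -3.10, and it was -3.21 without the 2 libraries whose labels conflict. If the titles were followed, it would be -1.10 (SE 0.95).

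**Figure D1:**
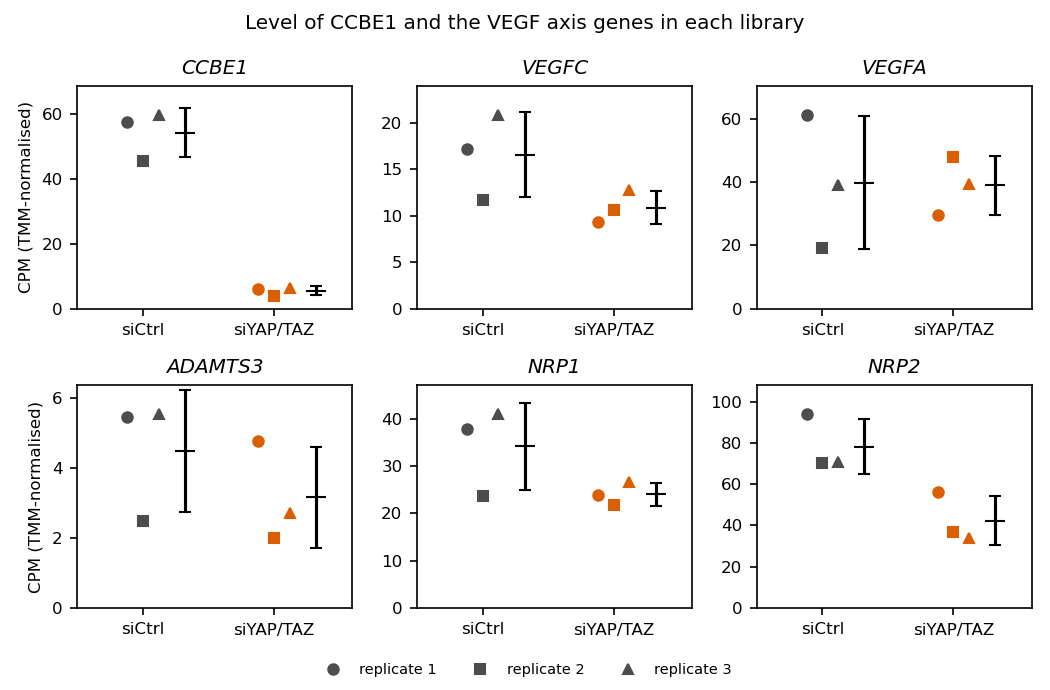
Level of each gene in the 6 libraries, in CPM on a linear axis from 0 that differs between panels. Circles, squares and triangles are replicates 1, 2 and 3 of siCtrl (grey) and siYAP/TAZ (orange), and black bars give the mean and SD of 3 libraries. CCBE1 drops from 54.4 to 5.54 CPM on average with a wide gap between the groups, NRP2 separates with a narrower gap, and in the other 4 panels the groups overlap.

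Genes annotated over CCBE1 were looked for, because it is not stated whether strand was used in counting. On the opposite strand, 4 long noncoding RNAs lie within or across it, and 1 of them shares 355 exonic bases with it, at the end where CCBE1 starts away from its 3′ end. Each of the other 5 members also has 1 noncoding RNA on the opposite strand, sharing 0 exonic bases with VEGFC, 70 with ADAMTS3, 147 with NRP2, 188 with VEGFA and 561 with NRP1. The RefSeq promoter windows (250 bases before to 50 after the start, build GRCh38.p14) held 4 of the 6 members, with no entry used for VEGFA or NRP1. Each was searched on both strands for the TEAD motif GGAATG, the AP-1 motif TGANTCA and the hypoxia response core ACGTG. These are found in 14.05%, 7.76% and 21.6% of the 27305 windows of this length. Among the 10034 windows of genes tested here the shares are 10.6%, 4.44% and 27.1%. The windows of CCBE1, VEGFC, ADAMTS3 and NRP2 held 0 TEAD and 0 AP-1 matches. The hypoxia core was matched once in CCBE1, beginning 215 bases before the start, and once in ADAMTS3, beginning 214 bases before it. These are letters in a short window and not binding sites, and more distant elements were not searched. The windows of CCBE1, the gene with the large change, and of its partner protease ADAMTS3 are shown 5′ to 3′ on the minus strand, with the ACGTG match in capitals, at chr18:59697374-59697673 and chr4:72569172-72569471.
CCBE1: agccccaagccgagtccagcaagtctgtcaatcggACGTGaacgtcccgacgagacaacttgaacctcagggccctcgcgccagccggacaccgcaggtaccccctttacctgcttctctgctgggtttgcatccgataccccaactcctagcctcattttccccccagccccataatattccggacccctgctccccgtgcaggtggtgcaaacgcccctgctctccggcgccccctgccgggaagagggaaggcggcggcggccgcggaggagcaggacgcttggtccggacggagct
ADAMTS3: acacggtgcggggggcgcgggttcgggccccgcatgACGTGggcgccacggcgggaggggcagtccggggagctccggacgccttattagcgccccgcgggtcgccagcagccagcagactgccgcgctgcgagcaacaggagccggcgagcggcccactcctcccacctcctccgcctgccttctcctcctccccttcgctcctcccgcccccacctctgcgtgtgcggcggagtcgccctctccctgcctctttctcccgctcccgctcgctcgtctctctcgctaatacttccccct

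The other 5 members all had fitted values below 0, from -0.88 for NRP2 to -0.041 for VEGFA, with a median log2FC of -0.51, beside a median of -0.00093 over all genes tested. At the threshold 0 of them passed, against the background of 1.96% of genes, while 3 were lower at an unadjusted p under 0.05, as were 9.27% of all genes tested, and DESeq2 called 1, NRP2, where it called 4.73% of all genes. Since the group was assembled with these data known and for a gene that falls here, nothing is read from these counts. The members are taken in turn below, by their place in the pathway.

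ADAMTS3 (Entrez 9508; GRCh37 chromosome 4, 73146686 to 73434938, minus strand), the protease that CCBE1 assists, was scarce. It had 19, 8 and 22 counts in the controls against 21, 6 and 10 after depletion, or 5.46, 2.47 and 5.53 against 4.76, 1.98 and 2.72 CPM. The groups overlapped, with the replicate 2 library at the bottom of both. The log2FC was -0.48 (SE 0.45, 95% interval -1.48 to 0.53), with an adjusted p of 0.629 in edgeR, so a change in either direction was compatible with these counts, while a loss of the size seen for CCBE1 lay outside the interval.

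VEGFC (Entrez 7424; GRCh37 chromosome 4, 177604689 to 177714076, minus strand), the ligand whose precursor is processed by the pair, was measured at 17.2, 11.7 and 20.9 CPM in the controls against 9.29, 10.6 and 12.8 CPM after depletion. The siYAP/TAZ libraries were mostly lower, but replicate 3 of that group lay above siCtrl replicate 2. The means were 16.6 ± 4.598 and 10.9 ± 1.77 CPM (SD, n = 3), with 65.5% of the control level in siYAP/TAZ. The log2FC of -0.62 (SE 0.27, 95% interval -1.23 to -0.0093) had an unadjusted p of 0.0472 and an adjusted p of 0.276 in edgeR, and did not pass. Without siCtrl replicate 2 the value was -0.81 with an adjusted p of 0.0564, still above the threshold, and without siCtrl replicate 3 it was -0.42 (0.641).

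VEGFA (Entrez 7422; GRCh37 chromosome 6, 43737921 to 43754224, plus strand) had no common direction. It stood at 61.2, 19.1 and 38.9 CPM in the controls against 29.5, 47.9 and 39.4 CPM after depletion, so that both the highest and the lowest of the 6 libraries were controls. The means of 39.8 ± 21.0 and 38.9 ± 9.24 CPM (SD, n = 3) lay within the spread of either group. Within replicate numbers 1, 2 and 3 the log2 ratios were -1.05, 1.32 and 0.018. The log2FC was -0.041 (SE 0.35, 95% interval -0.84 to 0.76, adjusted p of 0.967 in edgeR), and its sign turned with single libraries, to 0.40 if siCtrl replicate 1 was left out and 0.13 if siYAP/TAZ replicate 1 was, and to 0.022 with the replicate number as a block. Without siCtrl replicate 2 it was -0.37 (adjusted p of 0.354), and without both libraries whose labels conflict it was -0.54 (unadjusted p of 0.0477, adjusted p of 0.193).

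The balance of the ligands was also compared within each library, where no scaling enters. VEGFA had 3.55, 1.63 and 1.87 times the counts of VEGFC in siCtrl and 3.17, 4.53 and 3.09 times in siYAP/TAZ. The ratio was thus higher in siYAP/TAZ than in siCtrl replicates 2 and 3 and overlapped replicate 1. On the log2 scale, with 1 added to each count, the means were 1.13 ± 0.60 and 1.80 ± 0.30 (SD, n = 3), a difference of 0.67 with a p of 0.3 in a two-sided exact permutation test, where 3 against 3 libraries cannot go below 0.1. The difference was 1.00 without siCtrl replicate 1 and 0.45 without siCtrl replicate 2. Within the replicate numbers the ratio fell in pair 1 and rose in pairs 2 and 3 (paired exact permutation test, p of 0.5, where 3 pairs cannot go below 0.25).

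NRP2 (Entrez 8828; GRCh37 chromosome 2, 206546714 to 206662857, plus strand), the neuropilin best known as a partner of VEGFC and VEGFR3, had the largest change among the members after CCBE1. It had 93.9, 70.0 and 70.9 CPM in the controls against 56.0, 37.02 and 34.0 CPM after depletion. Each siYAP/TAZ library lay below each siCtrl library, the nearest being siYAP/TAZ replicate 1. Means were 78.3 ± 13.5 and 42.3 ± 11.9 CPM (SD, n = 3), with 54.1% of the control level in siYAP/TAZ, and the log2 ratios within replicate numbers were -0.75, -0.92 and -1.06. The log2FC of -0.88 (SE 0.21, 95% interval -1.36 to -0.40) did not pass in edgeR, with an adjusted p of 0.0721. It passed with the replicate number as a block (-0.90, SE 0.13, adjusted p of 0.00233), a setting in which 10.1% of all genes passed. Without siCtrl replicate 2, where 12.3% of genes passed, the adjusted p was 0.0189, and without siYAP/TAZ replicate 1 it was 0.0328, while it rose to 0.206 and 0.210 without siCtrl replicates 1 and 3 and to 0.215 and 0.291 without siYAP/TAZ replicates 2 and 3.

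NRP1 (Entrez 8829; GRCh37 chromosome 10, 33466420 to 33625190, minus strand), the neuropilin that presents VEGFA to VEGFR2, had 37.9, 23.8 and 41.0 CPM in the controls against 23.8, 21.8 and 26.7 CPM after depletion. The controls were spread out and siCtrl replicate 2 fell inside the siYAP/TAZ range. With means of 34.2 ± 9.18 and 24.1 ± 2.43 CPM (SD, n = 3), the log2FC was -0.51 (SE 0.22, 95% interval -1.01 to -0.0061), with an unadjusted p of 0.0478 and an adjusted p of 0.277 in edgeR. It passed only without siCtrl replicate 2 (-0.71, adjusted p of 0.0241) among the alternatives run. NRP1 is the member with the most exonic overlap with an opposite-strand RNA (561 bases), and reads from the shared bases cannot be told apart if strand was not used in counting. That RNA lies at 33500205 to 33502732, away from the annotated 3′ end of NRP1 at 33466420.

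Between the neuropilins, NRP1 had 0.404, 0.339 and 0.578 times the counts of NRP2 in siCtrl and 0.425, 0.589 and 0.784 times in siYAP/TAZ. These ranges overlapped. The difference in mean log2 ratio was 0.44, with a p of 0.2 in the two-sided exact permutation test. Within the replicate numbers the ratio rose in 3 of 3 pairs, and the paired exact permutation test gave a p of 0.25, the smallest that 3 pairs allow. Leaving out siYAP/TAZ replicate 1 gave a difference of 0.66, and leaving out replicate 3 of that group gave 0.22.

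**Figure D2:**
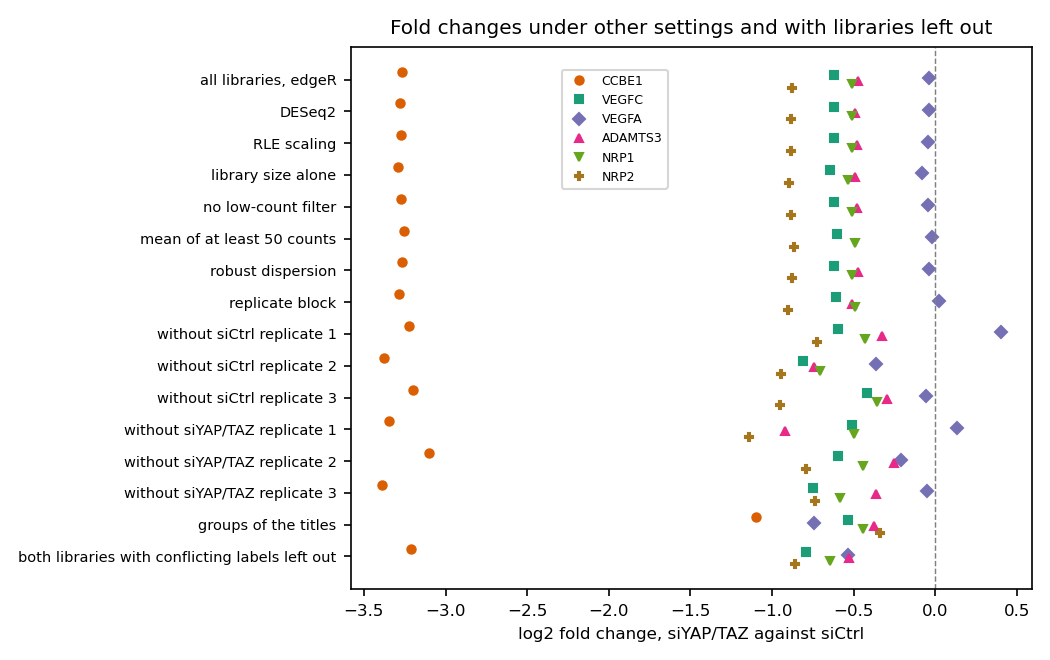
Fitted log2FC of each member (horizontal axis) with all libraries and under each alternative (vertical axis), with 1 symbol per gene. CCBE1 stays between -3.39 and -3.10 except with the groups of the titles (-1.10), VEGFA lies on either side of 0, and the other members stay below 0 wherever they were fitted.

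The members shared their lowest control library. In siCtrl replicate 2, VEGFC, VEGFA, ADAMTS3, NRP1, NRP2 and CCBE1 all had the lowest CPM of the 3 controls. For NRP2 the margin was slight, at 70.0 CPM against 70.9 CPM in siCtrl replicate 3. This is the library that stood apart on the first principal component and whose title names the other group. Without it the log2FCs were -3.37 for CCBE1, -0.95 for NRP2, -0.81 for VEGFC, -0.75 for ADAMTS3, -0.71 for NRP1 and -0.37 for VEGFA. Each was lower than with all libraries, which follows from leaving out each gene's lowest control. The share of all genes that were lowest in this library was not counted, so nothing is read from this about the members.

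The wider pathway was described by a list of 42 further genes, of which 29 passed the low-count filter. Of these 29, 1 gene, SVEP1, was called lower and 0 were called higher, where 1.96% of all genes tested were called in either direction. The median log2FC was 0.087, beside -0.00093 over all genes tested. At an unadjusted p under 0.05, 3 of the 29 were lower and 6 higher, where 9.27% of all genes tested were lower and 8.40% higher. In 3 tested genes of the list the groups did not overlap in the lower direction and in 5 in the higher direction, where the shares over all genes are 11.1% and 11.0%.

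Among the ligands outside the members, VEGFB, which binds VEGFR1, had 8.04, 17.9 and 10.8 CPM in the controls against 17.9, 22.5 and 22.0 CPM after depletion. All siYAP/TAZ libraries were above the controls, though replicate 1 only barely exceeded siCtrl replicate 2. Its log2FC of 0.77 (SE 0.29, adjusted p of 0.222 in edgeR) did not pass with all libraries, and did without siCtrl replicate 2 (1.13, adjusted p of 0.0172). VEGFD, the other ligand of VEGFR3, had 18, 20 and 7 counts in the controls against 30, 12 and 34 after depletion, with overlapping groups and a log2FC of 0.65 (SE 0.47, adjusted p of 0.514). PGF, a ligand of VEGFR1, stayed at 4 counts or fewer and was not tested.

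The receptors were near the floor. FLT1 (VEGFR1) had 2, 2 and 5 counts in the controls against 3, 6 and 0 after depletion, and FLT4 (VEGFR3) had 0, 0 and 2 against 3, 1 and 1. KDR (VEGFR2) had 2, 2 and 1 counts in the controls against 4, 5 and 11 after depletion, higher in each siYAP/TAZ library but with too few counts to pass the filter. Fitted without that filter, FLT1, FLT4 and KDR had log2FC values of -0.0098 (SE 0.81), 1.13 (SE 1.26) and 1.88 (SE 0.77), with adjusted p-values of 0.996, 0.720 and 0.260 from edgeR. None of these receptors passed. KDR had an unadjusted p of 0.0254 in that edgeR fit, where 2673 of 19181 genes had one under 0.05. The counts were too few for a firm comparison.

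Of the 7 proteases listed for the VEGFC precursor, 4 were tested and 0 passed with all libraries. FURIN, PCSK5 and PCSK7 are proprotein convertases that make the first cut, and their log2FCs were 0.22 (SE 0.18), 0.54 (SE 0.25) and -0.33 (SE 0.22), and edgeR gave adjusted p-values of 0.571, 0.296 and 0.467. CTSD, the lysosomal protease cathepsin D, which can also activate VEGFC, had 79.6, 139 and 77.6 CPM in the controls against 162, 216 and 183 CPM after depletion. Each siYAP/TAZ library exceeded each control, and siCtrl replicate 2 was the nearest. The log2FC of CTSD was 0.92 (SE 0.23), and edgeR gave an adjusted p of 0.0763. CTSD passed in 5 of 15 alternatives: the replicate block (0.00181), DESeq2 (0.00743) and no low-count filter (0.0170). The others were without siCtrl replicate 2 (0.00130) and without both libraries whose labels conflict (0.00190). ADAMTS2 and ADAMTS14, close relatives of ADAMTS3, had at most 4 and 9 counts in a library, and KLK3 had 0 in all.

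SVEP1, a large secreted matrix protein that is needed for lymphatic vessel growth, was the only gene of the list to pass with all libraries. It had 113, 139 and 114 CPM in the controls against 70.3, 73.4 and 51.7 CPM after depletion, with a clear gap between the groups. The means were 122 ± 14.8 and 65.1 ± 11.7 CPM (SD, n = 3), and the log2FC was -0.90 (SE 0.17, adjusted p of 0.0311 in edgeR), with 0.00195 under the replicate block. The call was lost without siCtrl replicate 1 (adjusted p of 0.0658), siCtrl replicate 3 (0.124) or siYAP/TAZ replicate 1 (0.0597), 2 (0.0731) or 3 (0.155), with log2FCs from -0.99 to -0.76 in these fits, and it held without siCtrl replicate 2 (0.0115). FAT4, an atypical cadherin whose human mutations, like those of CCBE1 and ADAMTS3, cause Hennekam lymphangiectasia-lymphedema syndrome, had a log2FC of -0.13 (SE 0.24, adjusted p of 0.815). For ITGA9, an integrin subunit of lymphatic valves, the values were 0.36 (SE 0.48) and 0.746.

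**Figure D3:**
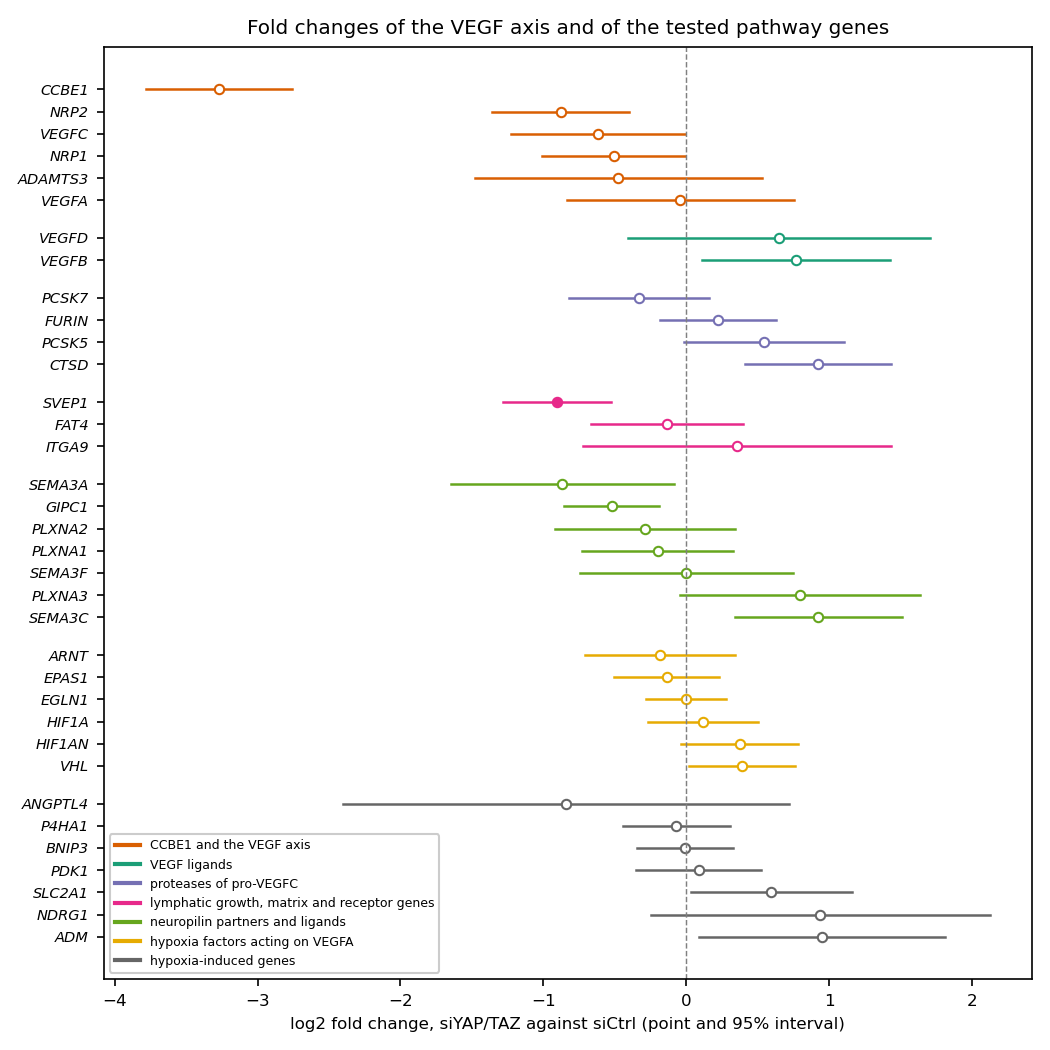
Fitted log2FC (points) with its 95% interval (lines) for the 6 members and the 29 tested pathway genes, coloured by role. The filled point, SVEP1 at -0.90, is the pathway gene that passed an adjusted p of 0.05; open points did not pass, except that CCBE1, at -3.27, was not tested because its fall was used to choose it.

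Among 11 partners and ligands of the neuropilins, 7 were tested and 0 passed with all libraries. SEMA3C, a semaphorin that binds both neuropilins, had 89.0, 75.3 and 78.7 CPM in the controls against 148, 93.5 and 219 CPM after depletion, above each control in each library. Its log2FC was 0.92 (SE 0.26), and edgeR gave an adjusted p of 0.107. SEMA3C passed in 5 of 15 alternatives: the replicate block (0.0166), DESeq2 (0.0213) and no low-count filter (0.0331). The others were without siYAP/TAZ replicate 2 (0.0470) and without both libraries whose labels conflict (0.00665). Without siYAP/TAZ replicate 3, the highest library, the value for SEMA3C was 0.59 (0.357). GIPC1, an adaptor that binds the tail of NRP1, had 121, 99.98 and 124 CPM in the controls against 88.8, 69.1 and 82.1 CPM after depletion. Its groups did not overlap, and the log2FC was -0.52 (SE 0.15, adjusted p of 0.109, and 0.0175 with the block). SEMA3A, an NRP1 ligand, had a log2FC of -0.87 (SE 0.35, adjusted p of 0.240), and 0.0244 without siCtrl replicate 2. The plexins PLXNA1, PLXNA2 and PLXNA3 had values of -0.20, -0.29 and 0.79, with adjusted p-values from 0.306 to 0.706.

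The genes through which hypoxia acts on VEGFA showed no call with all libraries. HIF1A and EPAS1, the oxygen-regulated subunits of the hypoxia-inducible factors, had log2FCs of 0.12 (SE 0.17) and -0.14 (SE 0.16), and edgeR gave adjusted p-values of 0.765 and 0.710, and VHL, which marks them for degradation, had 0.39 (SE 0.17, adjusted p of 0.265). Of 8 genes that hypoxia induces, 7 were tested, with a median of 0.087. They went separate ways, from -0.84 (SE 0.70) for ANGPTL4 to 0.95 (SE 0.38) for ADM. At an unadjusted p under 0.05 in edgeR, 2 were higher and 0 lower, where 8.40% and 9.27% of all genes tested were. SLC2A1 had 0.60 (SE 0.25, adjusted p of 0.257 in edgeR). It passed without both libraries whose labels conflict (0.84, adjusted p of 0.0256). ANGPTL4, a secreted lipase inhibitor, shared with VEGFA a wide control range and its order of controls, at 232, 18.5 and 76.1 CPM in siCtrl, but with 88.8, 29.4 and 62.8 CPM in siYAP/TAZ the order differed there. NDRG1 was instead highest among the controls in siCtrl replicate 2, at 25.0, 128 and 62.6 CPM, and passed with the replicate block (1.06, adjusted p of 0.0124). Its value was 1.64 without siCtrl replicate 2, where it also passed (adjusted p of 0.0400 in edgeR), and 0.53 without siCtrl replicate 1.

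The genes with a profile most like that of CCBE1 were ranked by the root-mean-square difference of log2 CPM over the 6 libraries, after each gene was centred on its own mean. Closeness rests mainly on the step between the groups, which the choice of CCBE1 used, and no test was made. The nearest 8 were INHBA-AS1 (difference of 0.34), AOX1 (0.42), CDH4 (0.47), CCN1 (0.49), INHBA (0.50), COL12A1 (0.60), FSTL1 (0.62) and THBS1 (0.66). INHBA-AS1 overlaps INHBA, which encodes the activin A subunit, on the opposite strand, so the reads of the pair may not be separate. CCN1 and THBS1 are secreted matricellular proteins, FSTL1 a secreted glycoprotein that binds TGF-beta family ligands, COL12A1 a fibril-associated collagen, CDH4 a cadherin and AOX1 an aldehyde oxidase.

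Each of these 8 was lower in every siYAP/TAZ library than in any control, as were 11.1% of all genes tested. For the 8 this follows largely from choosing them by closeness to CCBE1 and is no separate result. AOX1 went from 15.9 ± 5.61 to 2.21 ± 1.07 CPM and CDH4 from 48.7 ± 14.1 to 8.85 ± 1.37 CPM (SD, n = 3), with log2FCs of -2.78 (SE 0.40) and -2.45 (SE 0.26). FSTL1 went from 107 ± 21.5 to 25.2 ± 9.61 CPM (-2.08, SE 0.26) and COL12A1 from 42.0 ± 13.3 to 9.04 ± 2.34 CPM (-2.21, SE 0.28). The other VEGF axis members were further from CCBE1 than these. Among the 11341 genes compared, with a median difference of 1.68, NRP2 ranked 261 (difference of 1.23), VEGFC 704 (1.38), NRP1 922 (1.421) and VEGFA 8209 (1.78). ADAMTS3 lay below the limit of 5 CPM and was not among the genes compared. Its difference of 1.44 would place it at 1085.

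**Figure D4:**
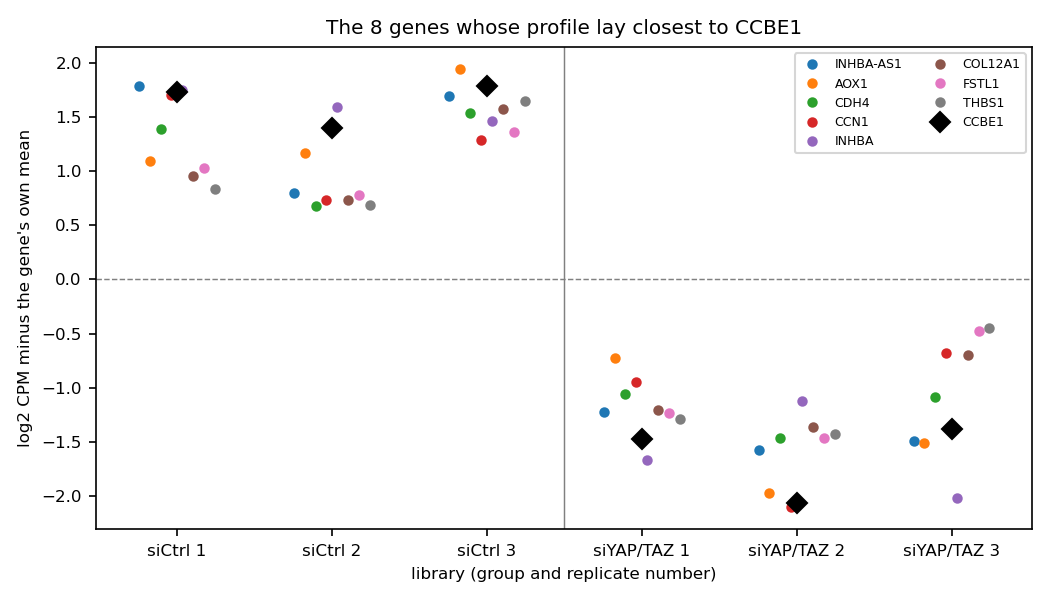
Log2 CPM minus the gene's own mean over 6 libraries (vertical axis) in each library (horizontal axis), for CCBE1 (black diamonds) and the 8 genes nearest to it (coloured circles). All 9 genes lie above 0 in the 3 siCtrl libraries and below 0 in the 3 siYAP/TAZ libraries, which follows largely from choosing the 8 by closeness to CCBE1. In siCtrl replicate 2, CCBE1 (1.40) and INHBA (1.599) stay high while the others lie at 1.17 or below.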

How the data were processed

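The authors deposited 1 table of raw counts per Entrez gene. Their processing notes name cutadapt 4.2, Bowtie2 2.3.5.1 and hg19. The gene annotation and the use of strand are not given in the sources used here, and the kit reads 3′ ends in the sense direction. Symbols came from RefSeq (GRCh38.p14, names and promoter windows only; 23308 IDs matched), and gene coordinates from GENCODE 44 on GRCh37. All 6 value columns were used, grouped by the description field.

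The counts were fitted over the whole table in R 4.3.3 with edgeR 4.0.16 (quasi-likelihood F test, with filterByExpr at its defaults, TMM scaling and a single group term) and Benjamini-Hochberg adjustment over 12510 genes. SEs came from the log2 fold change and its F statistic. The script was tested on simulated data. Log2 profiles used a prior count of 0.5 and genes of at least 5 CPM. Alternatives were DESeq2 1.42.0, other scalings and filters, robust dispersion, a replicate block, left-out libraries and the titles' groups. Within groups, chi-square per degree of freedom between libraries was 5.37 to 17.4, so none was a copy or repeat sequencing of another in its group. This cannot tell separate transfections from separate preparations of 1 culture. Replicate numbers were taken as pairs only for the replicate block, the ratios within replicate numbers and the paired tests. The calls with all libraries came from the fit without pairs, in which 245 genes passed, where 1263 did with the block. Pairs were used in view of deviations from group means, which correlated across genes at r = 0.40, 0.33 and 0.13 for replicates 1, 2 and 3. Libraries with different replicate numbers were not compared in this way, so whether equal numbers were true pairs was not tested. The pairing comes from the descriptions.

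The members, lists and tests were chosen with earlier results of these data known. Named were the members, the targeted genes, the pathway genes that passed with all ligands and receptors, and the 8 genes most like CCBE1; other pathway genes were named after their values were seen.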

Additional observations from a re-analysis of the deposited data

How the results depend on the processing

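CCBE1 kept its direction in all 15 alternatives, and its value moved beyond the spread between libraries in 1, the groups of the titles (-1.10). VEGFC and ADAMTS3 kept their direction and did not pass in any fit made, and ADAMTS3 could not be fitted at a mean of at least 50 counts, which removed it. The largest adjusted p over the alternatives was 0.898 for VEGFC and 0.908 for ADAMTS3. NRP2 passed with DESeq2 (-0.88, adjusted p of 0.0121), without the low-count filter (-0.88, 0.0234), with the replicate block (-0.90, 0.00233) and without the 2 libraries with conflicting labels (-0.86, 0.0450). The log2 fold change of VEGFA changed sign with the replicate block (0.022). When single libraries were dropped, the log2 fold change ranged from -3.39 to -3.10 for CCBE1, -1.14 to -0.73 for NRP2, -0.81 to -0.42 for VEGFC, -0.71 to -0.36 for NRP1, -0.92 to -0.26 for ADAMTS3 and -0.37 to 0.40 for VEGFA, and the ratio differences from 0.45 to 1.00 (VEGFA to VEGFC) and 0.22 to 0.66 (NRP1 to NRP2). The replicate block changed no other member's call. The paired test of the ratios was chosen after the data were seen and, with 3 pairs, cannot pass the threshold (differences of 0.67 for VEGFA to VEGFC and 0.44 for NRP1 to NRP2, p of 0.5 and 0.25 by exact permutation).

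With the groups of the titles, the VEGFA to VEGFC and NRP1 to NRP2 log2 ratios changed sign (-0.30 and -0.093), 0 genes of the whole table passed (464 at an unadjusted p under 0.05) and 0 of the pathway list. The genes that passed numbered 592 of 12510 (4.73%) with DESeq2 and 556 of 19181 without the low-count filter. They numbered 1263 of 12510 (10.1%) with the replicate block and 1183 of 12729 without the 2 libraries with conflicting labels. With 1 library left out they ranged from 16 of 12683 without siCtrl replicate 3 to 1579 of 12836 (12.3%) without siCtrl replicate 2. Of the pathway list, 3 of 29, 3 of 41, 5 of 29 and 6 of 29 genes passed in the first 4 of these settings. With 1 library left out 0 to 6 passed, with 6 of 30 without siCtrl replicate 2. The cause of these shifts was not tested. Library totals of 3175149 to 4317286 counts left ADAMTS3, PGF and the VEGF receptors too scarce for a firm comparison.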
